A study of Mus musculus with 6 samples.

Results

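How cells of the adult mouse uterine tube take up and sense the transmitters of autonomic nerves was read from the transcripts of Slc6a2, Chrm3, Chrm2, Adra1a and Adra2a in single cells. They are 5 of the 50559 genes in the count matrices and were taken by name. They had been picked with their levels across cell classes and sections already known, so those levels are described here without a test. The 6 libraries, made with a droplet method that counts unique molecular identifiers (UMIs) at the 3′ end of transcripts, came from adult C57BL6 females in estrus. There were 3 libraries of the distal section of the tube, numbered 1, 2 and 3 in their titles, and 3 of the proximal section, numbered 2, 3 and 4. No treatment, transgene or mutation is named for any group. Each library mixes tissue of several mice, so it is a pool and not an animal. The labels do not tie any library to a separate culture or animal, and p-values therefore measure the spread between pools.

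Sympathetic nerve endings release noradrenaline, and the transporter encoded by Slc6a2 carries it back into cells, which ends its action. Noradrenaline acts on adrenergic receptors. The receptor encoded by Adra1a couples to Gq proteins and is known for contracting smooth muscle, and the receptor encoded by Adra2a couples to Gi proteins, which lower cyclic AMP. Acetylcholine from parasympathetic nerves acts on muscarinic receptors, of which Chrm3 encodes a Gq-coupled one that drives secretion and contraction and Chrm2 a Gi-coupled one of smooth muscle and heart. Slc6a2 is best known from noradrenergic neurons.

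The filters left 6652, 4115 and 5417 cells in the distal libraries and 824, 325 and 1133 in the proximal ones, with medians of 3351.5, 4677 and 2935 UMIs in distal and 3429, 733 and 1084 UMIs in proximal libraries. Of the barcodes, 173 occurred in more than 1 library, and no pair of libraries shared more than 44. The cells fell into 27 clusters, and the levels given are CPM, the UMIs of a gene summed over the cells of a class in a library and scaled to a total of 1000000 UMIs. The vascular smooth muscle cluster (cluster 18) had 7 of 7 vascular markers detected in at least 20% of its cells. Cluster 3, led by the contractile genes Actg2 and Cnn1, had 9 of 9 smooth muscle markers but only 2 of 5 visceral ones, and is called Actg2 smooth muscle here and not visceral. Cluster 10 met no name, because the mesothelial marker Msln stood among its 10 leading genes. All 8 epithelial markers were detected in it, the oviductal secretory gene Ovgp1 was present in 99.8% of its cells, and the mesothelial markers Upk3b and Gpm6a had 2 UMIs each, whereas Wt1, another mesothelial marker, stood at 571 CPM. It is called cluster 10 and was kept apart from the named non-ciliated epithelium. No proximal library held 10 cells of cluster 10, of Actg2 smooth muscle or of pericytes, so those classes have distal levels only.

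Upstream sequences are shown for the receptor genes that the set of 32851 mouse promoters used here held (3 of the 5 genes, build GRCm38.p6). They were chosen because these genes differ in the classes of cells in which they were read. Each is the 250 bases before the annotated start, 5′ to 3′ on the strand of the gene, and capitals mark matches on either strand to the TATA box (TATAAA), the CCAAT box (CCAAT), the GC box (GGGCGG), an E box (CACGTG) or the core of cyclic AMP response elements (TGACG).
Chrm3, chr13:10360804-10361053, minus strand: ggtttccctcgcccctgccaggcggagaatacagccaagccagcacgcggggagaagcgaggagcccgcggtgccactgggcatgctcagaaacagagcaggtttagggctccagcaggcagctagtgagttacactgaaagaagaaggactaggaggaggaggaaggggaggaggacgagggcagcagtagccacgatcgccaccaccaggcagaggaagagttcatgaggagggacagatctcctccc
Chrm2, chr6:36387834-36388083, plus strand: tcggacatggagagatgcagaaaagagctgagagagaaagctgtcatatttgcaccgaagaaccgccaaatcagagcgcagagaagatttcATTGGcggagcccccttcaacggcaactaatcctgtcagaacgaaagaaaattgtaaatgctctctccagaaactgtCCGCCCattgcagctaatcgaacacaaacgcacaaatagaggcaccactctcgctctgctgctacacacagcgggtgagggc
Adra2a, chr19:54045009-54045258, plus strand: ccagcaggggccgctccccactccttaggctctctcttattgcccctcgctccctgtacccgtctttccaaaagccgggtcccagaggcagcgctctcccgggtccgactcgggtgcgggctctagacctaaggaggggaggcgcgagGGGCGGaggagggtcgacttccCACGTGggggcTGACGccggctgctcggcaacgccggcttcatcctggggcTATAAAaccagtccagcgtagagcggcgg
The Adra2a stretch held a TATAAA from 29 to 24 bases before the start, a motif that 12.4% of 32851 mouse promoters hold in the same window, and a CACGTG, held by 6.02% of them. It also held the GC box and the core TGACG, which 32.7% and 17.8% of promoters hold. The Chrm2 stretch held CCAAT on the other strand, as 33.8% of promoters do on either strand, and GGGCGG on the other strand. None of the 5 motifs was found in the Chrm3 stretch. These are matches of letters only.

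Slc6a2, the noradrenaline transporter gene, was an epithelial transcript of the distal tube. Of its 1937 distal UMIs, 1847 (95.4%) lay in epithelial cells, which held 46.8% of all distal UMIs. In cluster 10 it reached 174, 158 and 145 CPM in distal libraries 1, 2 and 3 (159 ± 14.6, SD, n = 3). Cluster 10 alone held 59.5% of the distal Slc6a2 UMIs with 9.77% of all distal UMIs. Slc6a2 was among the leading genes of this cluster, although it had been left out of the genes used for clustering.

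In the named non-ciliated epithelium Slc6a2 stood at 21.8, 18.4 and 24.1 CPM in the distal libraries, against 3.36, 0 and 0 CPM in the proximal libraries. The proximal value came from 2 UMIs in proximal 2, against 366 UMIs in distal cells. The libraries of the sections did not overlap, and pooled CPM were 15.6 times as high in distal as in proximal cells (exact 95% counting interval 4.28 to 129). With cluster 10 counted among these cells the ratio was 45.3 (12.5 to 375). Such counting intervals, here and below, leave out the spread between libraries and are no test of the sections. Different clusters hold these sections: 70.2% of the 403 proximal cells lay in cluster 15, led by Serpina1e and Fxyd4, which held 0.873% of the 2405 distal cells, and 43.0% of the distal cells but 7.20% of the proximal cells lay in cluster 8, led by Gabrg3 and Dcpp2. Within cluster 8 Slc6a2 had 30.7, 30.8 and 26.4 CPM in distal libraries, against 1 UMI in 29 proximal cells. In cluster 15 it had no UMI in 21 distal or in 283 proximal cells.

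Epithelial cells clustered on their own gave 13 clusters, and Slc6a2 stood above 30 CPM in 4 of them when distal cells were pooled. Its highest level, 222, 352 and 301 CPM in the distal libraries, was in E8, a cluster of 358 cells led by Galntl6 that had no proximal cell. E13, led by the Dcpp1, Dcpp2 and Dcpp3 genes for secreted proteins, followed with 99.1, 114 and 52.1 CPM, and E5, led by the Wnt amplifier gene Rspo1 and by Igfbp3, had 37.1, 96.0 and 59.1 CPM. The ranges of E13 and E5 overlapped, while those of E8 and E13 did not. E9, a ciliated cluster with a median of 15398 UMIs per cell and 19 cells in distal 1, had 21.0, 60.2 and 49.6 CPM. E1 and E6, led by S100b and Pla2g7, had 4.04 and 7.16 CPM in pooled distal cells, and E10, E11 and E12 had no distal Slc6a2 UMI in 178, 7 and 33 cells.

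**Figure D1:**
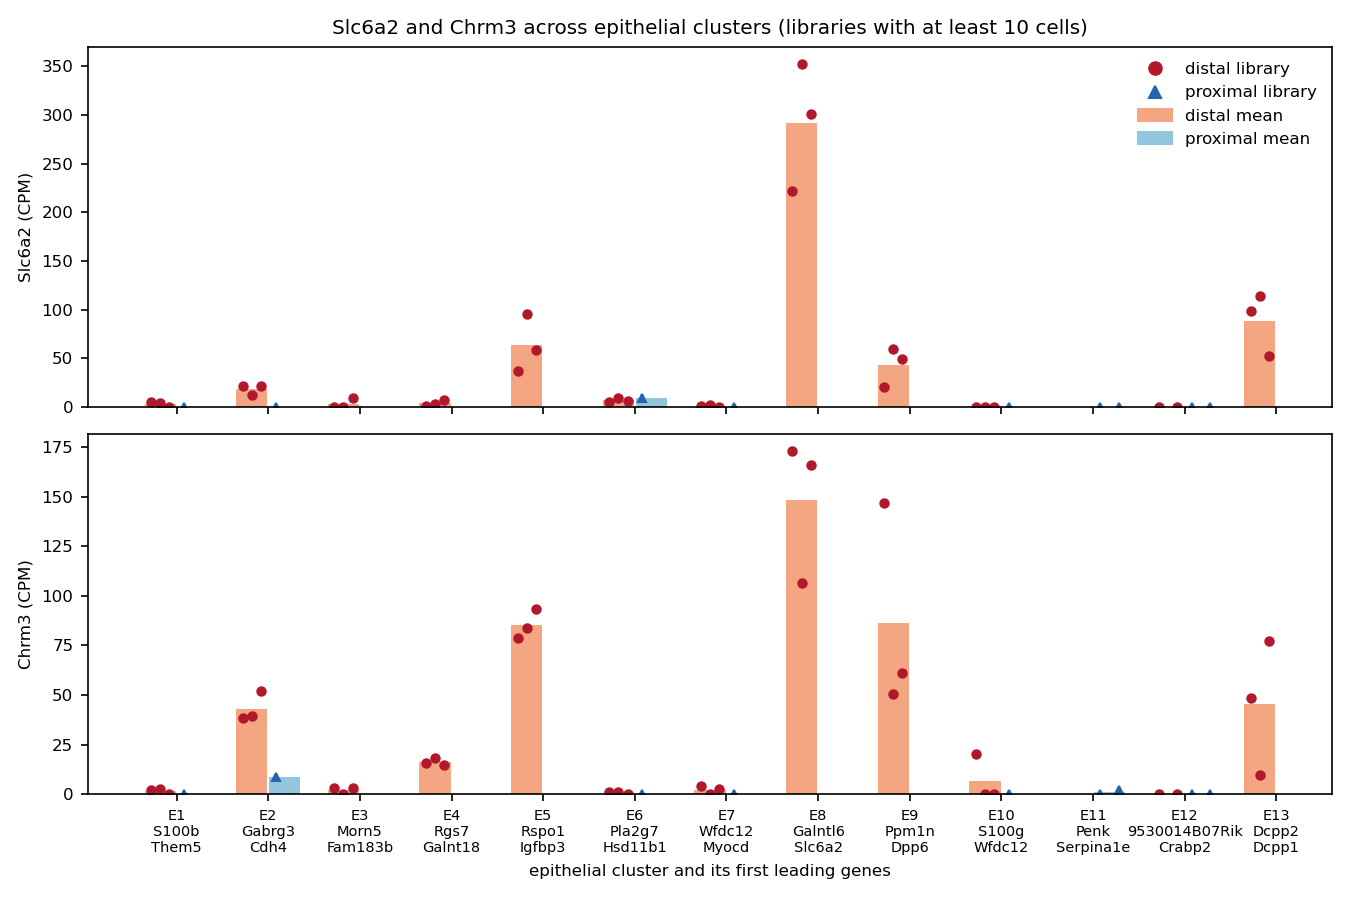
Slc6a2 (top) and Chrm3 (bottom) in CPM for each of 13 epithelial clusters, with red points for distal libraries left of blue triangles for proximal ones and bars for their means; libraries with under 10 cells of a cluster are not drawn. Slc6a2 is highest in E8 at 222 to 352 CPM, and Chrm3 is high in E8, in the ciliated cluster E9 and in E5.

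In ciliated cells Slc6a2 read 2.66, 63.0 and 32.2 CPM in distal libraries, against 0 CPM in both proximal libraries with at least 10 cells (57 cells, 217225 UMIs). Measured against a floor of 3 UMIs over those proximal cells, the distal level was at least 2.23-fold higher. Of its 329 distal UMIs, 318 lay in cluster 17, a ciliated cluster with a median of 16591 UMIs per cell and a median doublet score of 0.746, against 0.412 over all cells; the part of doublets in this level was not tested. In the other ciliated clusters, 7 and 9, Slc6a2 had 1.05 and 4.35 CPM in pooled distal cells.

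In the named classes outside the epithelium Slc6a2 was near or at 0. The unnamed clusters 12 and 21 had 29.7 and 54.2 CPM in pooled distal cells. Their leading genes included haemoglobin genes, but also S100b in cluster 12 and the Dcpp genes in cluster 21. Since S100b and the Dcpp genes also lead epithelial clusters, these clusters are placed neither inside nor outside the epithelium. Fibroblasts had 1.67, 1.05 and 1.73 CPM in distal, against 1.16, 0 and 0 CPM in proximal libraries. No Slc6a2 UMI was read in 475 distal cells of blood endothelium, 164 of vascular smooth muscle or 176 pericytes. In T and NK cells, which serve as a gauge of free RNA, 1 of 222 distal cells (0.450%) held a Slc6a2 UMI at a median of 1980.5 UMIs per cell, against 34.7% of 901 distal cells of cluster 10 at a median of 6824 UMIs. Thinned to 1000 UMIs per cell, the shares were 8.57% of 898 cells of cluster 10 (exact 95% interval 6.83% to 10.6%) and 0 of 211 T and NK cells (up to 1.73%).

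Neuronal markers were at or near 0 in cluster 10. Th, which encodes the rate-limiting enzyme of catecholamine synthesis, had no UMI, and 4 to 6 of 7 neuron markers were at 0 in each distal library. The summed level of the 7 neuron markers was 1.21 to 2.18 CPM in the distal libraries. The genes most like Slc6a2 over 22 clusters of distal cells, by Pearson correlation of log2(CPM + 5) among 13472 genes, were Cdh22 (r = 0.93), Pkp1, Gabrp, Cdcp3 and Adora1 (the last r = 0.91). This is a description over clusters that share libraries, and Gabrp and Adora1 encode receptor proteins for GABA and adenosine.

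Chrm3, the Gq-coupled muscarinic receptor gene, was read in epithelium, fibroblasts and endothelium, and not in vascular smooth muscle. In cluster 10 it had 148, 88.7 and 118 CPM in the distal libraries. In the named non-ciliated epithelium it had 27.6, 21.6 and 52.9 CPM in distal libraries, against 0, 4.31 and 4.85 CPM in proximal libraries. The proximal values rest on 0, 1 and 3 UMIs. The sections did not overlap, and the means of 34.03 ± 16.6 CPM (SD, n = 3) in distal and 3.05 ± 2.66 CPM (n = 3) in proximal libraries differed by 3.48 on the log2 scale. In cluster 8 Chrm3 had 41.3, 40.4 and 58.3 CPM in distal libraries, against 2 UMIs in 29 proximal cells (14.0 CPM). In cluster 15 it had no UMI in 21 distal cells and 2 UMIs in 283 proximal cells (1.96 CPM).

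Among epithelial clusters Chrm3 was highest in E8, with 173, 106 and 166 CPM in distal libraries, and stood at 78.6, 83.8 and 93.5 CPM in E5. Their ranges did not overlap, while that of E9, at 147, 50.8 and 61.4 CPM, overlapped both. E2, led by Gabrg3, had 38.3, 39.2 and 52.1 CPM, and E13 had 48.7, 9.79 and 77.4 CPM, a range that took in that of E2. The S100b-led E1 and the Pla2g7-led E6 had 2.17 and 1.10 CPM in pooled distal cells. E8 was thus the highest epithelial cluster for Slc6a2 and for Chrm3. In the ciliated class Chrm3 had 20.1, 25.1 and 39.2 CPM in distal libraries and no UMI in proximal libraries, at least 2.30-fold higher in distal cells against the floor of 3 UMIs. Cluster 17 again held most of it, with 303 of 340 UMIs.

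Within cluster 10 Chrm3 was read in 63.4% of cells with a Slc6a2 UMI and 39.7% of cells without one in distal 1, in 48.5% and 47.6% in distal 2, and in 48.3% and 33.5% in distal 3. Cells with a Slc6a2 UMI were also deeper, with medians of 10179, 11443 and 7703 UMIs, against 6347, 8924 and 5501 UMIs without. The part of depth in these shares was not tested.

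In fibroblasts Chrm3 had 59.1, 61.4 and 49.6 CPM in distal libraries, against 63.8, 53.2 and 44.7 CPM in proximal libraries. The ranges overlapped, and the means of 56.7 ± 6.28 CPM in distal and 53.9 ± 9.57 CPM in proximal libraries (SD, n = 3 each) differed by 0.07 on the log2 scale. Clusters of fibroblasts differed more among themselves. Cluster 2, led by Inmt and Tcf21, had 114, 106 and 136 CPM in distal, against 90.9, 138 and 79.3 CPM in proximal libraries. Cluster 11, led by Ly6h, had 142 and 141 CPM in distal 2 and distal 3, against 58.1 and 40.6 CPM in proximal 2 and proximal 4. The Col7a1-led cluster 4 had 6.56, 5.67 and 4.92 CPM in distal libraries and no proximal cell. Proximal fibroblasts lay mainly in cluster 2 (45.8%), cluster 16 (24.3%) and cluster 11 (23.5%), whereas distal ones lay mainly in clusters 1 (31.4%), 4 (22.3%), 2 (21.3%) and 6 (19.4%).

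**Figure D2:**
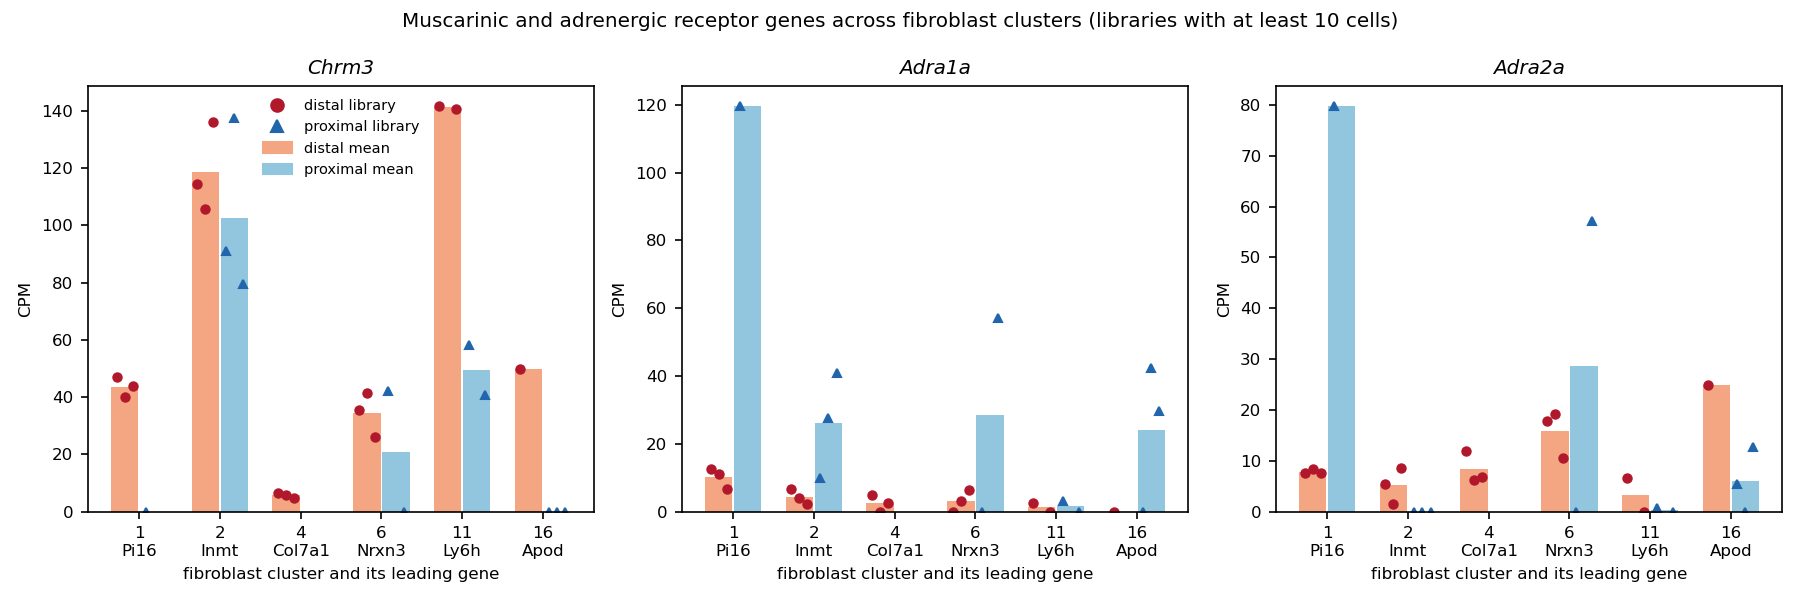
Chrm3, Adra1a and Adra2a in CPM for 6 fibroblast clusters, each with its leading gene; red points are distal libraries, blue triangles proximal ones, bars are means, and libraries with under 10 cells of a cluster are not drawn. Chrm3 is above 100 CPM in distal cells of clusters 2 and 11, and the tall proximal bars of cluster 1 rest on 1 library with 20 cells and 3 Adra1a and 2 Adra2a UMIs.

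In blood endothelium, where muscarinic receptors are known to evoke release of nitric oxide, Chrm3 had 158, 50.0 and 47.7 CPM in distal libraries, against 32.7 and 21.7 CPM in proximal 3 and proximal 4. These proximal values rest on 1 and 2 UMIs, and the pooled ratio was 4.86 (exact 95% counting interval 1.64 to 23.8). Distal 1 stood well above the other libraries; it held 184 of the 215 distal UMIs, and the log2 ratio of the means was 0.84 without it and 1.65 with it. Lymphatic endothelium had 232 CPM in distal 1, the 1 distal library with at least 10 of these cells, from 15 UMIs in 23 cells. In 12 lymphatic cells of proximal 4 no Chrm3 UMI was read. Actg2 smooth muscle had 20.5, 19.4 and 10.2 CPM in distal libraries. In vascular smooth muscle none was read in 164 distal and 65 proximal cells, which had 505333 and 75401 UMIs.

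Chrm3 had 3 UMIs in 222 distal T and NK cells (5.86 CPM) and 4 in 254 proximal ones (9.86 CPM). In pooled proximal cells non-ciliated epithelium, at 2.77 CPM, stood under T and NK cells. By library this did not hold in proximal 3, with 4.31 CPM in epithelium against 0 in T and NK cells. The counts are few, and the part of free RNA in the proximal epithelial levels was not tested. Myeloid cells had 5 Chrm3 UMIs in 140 distal cells (11.6 CPM) and 2 in 71 proximal ones (12.9 CPM). The distal levels in fibroblasts, cluster 10 and blood endothelium stood above those of T and NK cells and of myeloid cells. Actg2 smooth muscle stood above myeloid cells in distal 1 and distal 2. In distal 3 it had 10.2 CPM, against 25.7 CPM in myeloid cells from 2 UMIs. In proximal 4 blood endothelium had 21.7 CPM, against 45.4 CPM in myeloid cells from 2 UMIs. The part of free RNA in these levels was not tested. The genes most like Chrm3 across the 22 distal clusters were Plk2 (r = 0.84), Nedd4l, Ier2, Scara3 and Ccser2 (r = 0.76). Plk2 and Ier2 are known as early-response genes, and Nedd4l encodes a ubiquitin ligase of epithelial sodium channels.

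Chrm2, the Gi-coupled muscarinic receptor gene, was barely detected. It had 38 UMIs in 16184 distal cells and 3 in 2282 proximal cells. Of the distal UMIs, 18 lay in fibroblasts and 15 in Actg2 smooth muscle, where 12, 1 and 2 UMIs gave 2.39, 1.39 and 1.56 CPM in the distal libraries. Non-ciliated epithelium and cluster 10 had none in 3306 distal cells, which held 24272650 UMIs. Blood endothelium had 4 UMIs in distal cells and 1 in proximal cells. Actg2 smooth muscle thus stood above non-ciliated epithelium and cluster 10, and with so few UMIs no order among the other classes is read; the likeness of Chrm2 to endothelial genes such as Tspan18 (r = 0.84), Aqp1, Vwa1, Col13a1 and Ecscr rests on these UMIs.

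Adra1a, the Gq-coupled adrenergic receptor gene, was highest in vascular smooth muscle. It had 164 and 239 CPM in distal 1 and distal 3, against 531 and 414 CPM in proximal 3 and proximal 4. The other libraries held under 10 such cells. The values rest on 69 and 18 distal UMIs and on 8 and 25 proximal UMIs. The sections did not overlap, but 2 libraries in each can separate without any difference between sections. The means of 201 ± 53.1 CPM in distal and 473 ± 82.2 CPM in proximal libraries (SD, n = 2 each) gave a log2 ratio of -1.23. This class had a median of 2601 UMIs per cell in distal and 784 in proximal cells. The summed level of 7 vascular smooth muscle markers was 5468 to 5806 CPM in distal and 4376 to 4378 CPM in proximal libraries, with none at 0. The summed level of 8 fibroblast markers was 838 to 1765 CPM in distal and 862 to 4807 CPM in proximal libraries, with up to 2 and up to 5 of them at 0; their part in the Adra1a values was not tested. Of the vascular smooth muscle cells, 28.7% of 164 distal and 29.2% of 65 proximal ones held an Adra1a UMI. Thinning to 1000 UMIs per cell left out shallower cells, 19 of the distal and 39 of the proximal ones. After thinning, the shares were 14.5% of 145 distal cells (exact 95% interval 9.19% to 21.3%) and 34.6% of 26 proximal cells (17.2% to 55.7%). These intervals count cells and not libraries, so they do not compare the sections.

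Adra1a in other contractile cells was near 0: Actg2 smooth muscle had 2 UMIs in 1634 distal cells, and pericytes 1 UMI in 176. T and NK cells held no Adra1a UMI in 222 distal or 254 proximal cells. In fibroblasts Adra1a had 8.58, 4.18 and 4.55 CPM in distal libraries, against 5.02, 42.5 and 36.3 CPM in proximal libraries. The 2 high proximal values rest on 4 and 26 UMIs in the shallowest libraries, and the ranges overlapped because proximal 2 lay among the distal values. Means of 5.77 ± 2.44 CPM in distal and 28.0 ± 20.1 CPM in proximal libraries (SD, n = 3 each) gave a log2 ratio of -2.28, which was -1.19 from pooled UMIs. Within fibroblast cluster 2 Adra1a had 6.70, 3.94 and 2.32 CPM in distal, against 9.79, 27.5 and 41.0 CPM in proximal libraries, which did not overlap; proximal 3 gave 1 of these UMIs. The summed vascular smooth muscle markers in fibroblasts were 62.0 to 112 CPM in distal and 10.6 to 52.9 CPM in proximal libraries, with 0 to 1 and 1 to 6 of the 7 at 0.

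Epithelial Adra1a was low and lay mostly in 1 cluster. Non-ciliated epithelium had 9.49, 2.75 and 13.1 CPM in distal libraries, against 0, 0 and 3.24 CPM in proximal libraries. The proximal value came from 2 UMIs, and the pooled ratio was 6.30 (exact 95% counting interval 1.71 to 52.5). Cluster 8 held 146 of the 148 distal UMIs of this class, at 14.3, 5.00 and 14.5 CPM, and both proximal UMIs, at 14.0 CPM in 29 cells. The proximal value lay within the distal range, but 2 UMIs are too few to read whether the sections differ within cluster 8. The genes most like Adra1a over distal clusters were Lrrtm3 (r = 0.89), Xirp1, Synpo2l, Rergl and Susd5 (r = 0.88). Xirp1 and Synpo2l encode actin-binding proteins of muscle.

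Adra2a, the Gi-coupled adrenergic receptor gene, was highest in pericytes, the contractile cells around capillaries, and was spread through fibroblasts. Pericytes had 71.7, 82.2 and 79.9 CPM in the distal libraries (77.9 ± 5.54, SD, n = 3), from 20, 2 and 4 UMIs. Vascular smooth muscle had 2 UMIs in distal and 1 in proximal cells. The 2 contractile classes of the vessels thus stood in opposite order for the 2 genes: Adra2a had 26 UMIs in distal pericytes and 2 in distal vascular smooth muscle, and Adra1a had 1 and 87. All 8 pericyte markers were detected in the pericyte cluster, and their sum was 9214 to 12906 CPM in its libraries.

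Fibroblasts held 80.7% of the 300 distal Adra2a UMIs with 35.6% of all distal UMIs. They had 8.20, 10.2 and 7.998 CPM in distal libraries, against 1.93, 0 and 8.37 CPM in proximal libraries. The ranges overlapped through proximal 4. Means of 8.80 ± 1.22 CPM in distal and 3.44 ± 4.38 CPM in proximal libraries (SD, n = 3 each) gave a log2 ratio of 1.36, which was 3.19 without proximal 4. Among fibroblast clusters the Nrxn3-led cluster 6 had 17.8, 19.2 and 10.5 CPM in distal libraries and cluster 2 had 5.51, 1.48 and 8.51 CPM. In cluster 2 the 1492 distal cells gave 28 Adra2a UMIs, whereas none was read in 512 proximal cells, which held 1116922 UMIs. Actg2 smooth muscle had 2.59, 1.39 and 7.04 CPM in distal libraries. Epithelial cells gave 4 UMIs in 5557 distal cells and 4 in 469 proximal cells. The genes most like Adra2a were H19 (r = 0.94), Ppfia2, Enox1, Gm13470 and Gm20471 (r = 0.89). H19 is an imprinted noncoding RNA. This likeness rests on few UMIs: Adra2a peaked at 73.6 CPM, from 26 UMIs in distal pericytes, and H19 at 28.3 CPM.

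**Figure D3:**
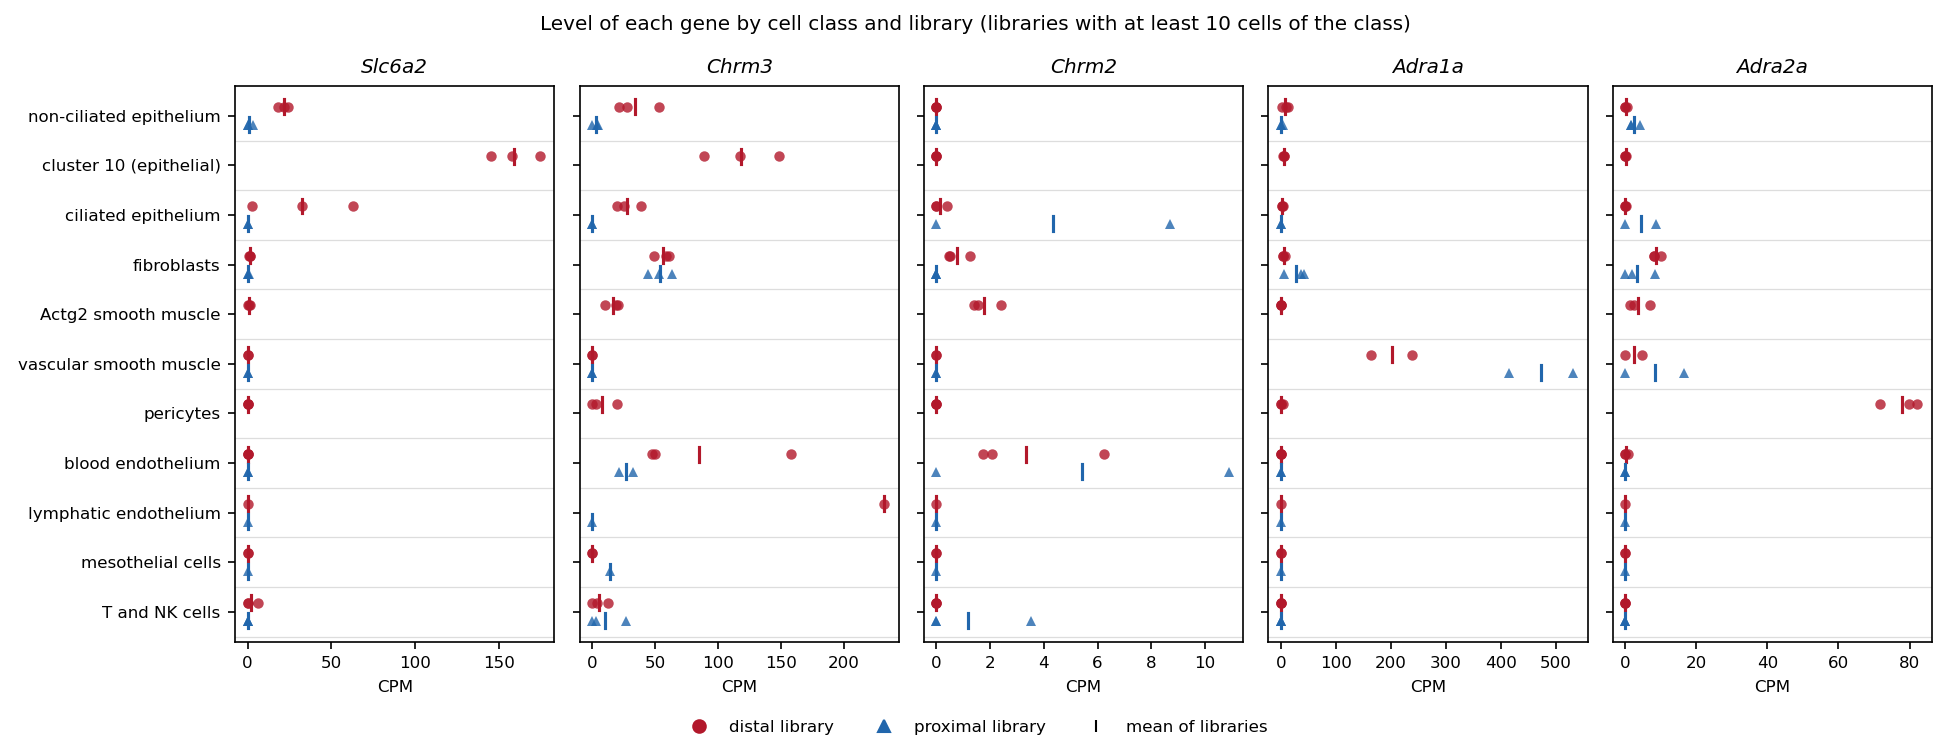
Level of each of the 5 genes in CPM (a separate linear axis for each gene) by cell class; red circles are distal libraries, drawn above the blue triangles of proximal libraries, and short lines are means over libraries with at least 10 cells. Slc6a2 is high in cluster 10 at 145 to 174 CPM, Adra1a in vascular smooth muscle at 164 to 531 CPM and Adra2a in pericytes at 71.7 to 82.2 CPM.

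The rest of the pathway was read from 6 lists of transmitter genes with 103 members besides the 5 genes. The other route of noradrenaline uptake, the low-affinity transporter encoded by Slc22a3, was a smooth muscle transcript: Actg2 smooth muscle had 319, 146 and 285 CPM in distal libraries, and non-ciliated epithelium 5 UMIs in 2405 distal cells. Slc6a2 and Slc22a3 lay in different tissues of the same wall, with 3 Slc6a2 UMIs in Actg2 smooth muscle and 3 Slc22a3 UMIs in cluster 10. Maoa, which encodes an enzyme that breaks noradrenaline down, was read in cluster 10 at 41.0 CPM, while Maob had 2 UMIs there. Maoa was not particular to cluster 10. In distal libraries it had 44.8 to 47.0 CPM in non-ciliated epithelium and 30.9 to 42.3 CPM in fibroblasts. Distal blood endothelium had more, at 248, 169 and 244 CPM, and distal ciliated cells less, at 8.74 to 21.4 CPM. Maob was a gene of fibroblasts and smooth muscle, at 45.4, 41.7 and 40.9 CPM in distal, against 57.6, 95.7 and 62.8 CPM in proximal fibroblasts. Th had 1 UMI in distal and 1 in proximal cells, and Chat, which encodes the enzyme that makes acetylcholine, had 2 UMIs in distal cells and 0 in proximal cells.

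Among the other adrenergic receptor genes, Adra1b lay in non-ciliated epithelium, with 7.65, 16.7 and 9.65 CPM in distal, against 20.2, 4.31 and 3.24 CPM in proximal libraries. Adra1d, in the same Gq-coupled family, had 22.6 CPM in distal pericytes, from 8 UMIs. Adrb1, a beta receptor gene whose product raises cyclic AMP, had 11.5 CPM in distal ciliated cells and 0.354 CPM in distal non-ciliated epithelium. Chrm5, a Gq-coupled muscarinic gene, had 195 UMIs in distal and 42 in proximal cells, and Chrm1 and Chrm4 had 34 and 23 distal UMIs.

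**Figure D4:**
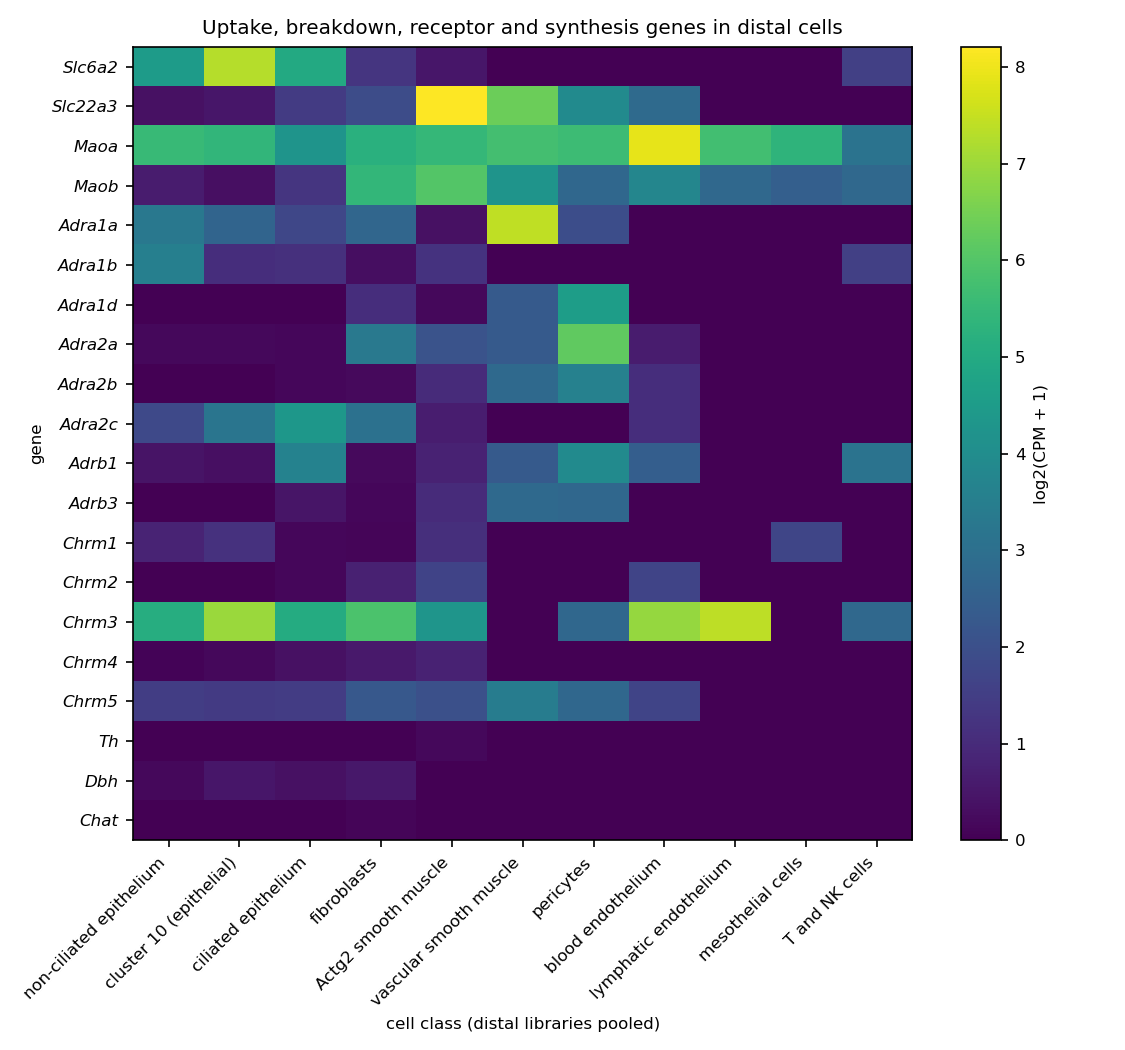
A selection of uptake, breakdown, receptor and synthesis genes (rows) by cell class (columns) in pooled distal cells, coloured by log2(CPM + 1). Slc6a2 is bright in epithelial columns and Slc22a3 in Actg2 smooth muscle, Adra1a in vascular smooth muscle and Adra2a in pericytes, while Th and Chat are dark throughout.

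Distal and proximal sections were compared for the list genes within each class by the quasi-likelihood test of edgeR across all genes, with Benjamini-Hochberg adjustment. In non-ciliated epithelium 3 of 43 tested list genes passed, against 3.25% of all 12112 genes tested, and their median log2 ratio was 0.02, against 0.06 over all genes. Different clusters hold the sections of this class, as given above for Slc6a2, and their part in the calls was not tested. Adra2c is a Gi-coupled receptor gene of the same family as Adra2a. It had 2.69, 1.90 and 2.90 CPM in distal, against 16.8, 25.8 and 24.3 CPM in proximal libraries (log2 ratio -2.94 ± 0.40 SE, edgeR adjusted p = 0.00691). In ciliated cells Adra2c had 22.0, 22.6 and 16.9 CPM in distal, against 19.5 and 26.1 CPM in proximal libraries. Adcy2, an adenylyl cyclase gene, and Gna14, a Gq-family gene, were higher in distal cells, by 3.29 ± 0.64 and 2.37 ± 0.53 on the log2 scale (edgeR adjusted p = 0.0253 and 0.0409). Gna14 had 153, 146 and 168 CPM in distal, against 40.3, 8.62 and 42.1 CPM in proximal libraries. Of the 5 genes, 2 (Slc6a2 and Chrm3) passed the filter on low counts here. Leaving out any 1 distal library ended all 3 calls, with edgeR adjusted p from 0.0714 to 0.108 for Adra2c, and leaving out proximal 3 or proximal 4 ended those of Adcy2 and Gna14. The Gna14 call also ended with cluster 10 counted in the class (edgeR adjusted p = 0.0546).

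In ciliated epithelium 1 of 48 tested list genes passed, against 0.456% of 13163 genes. Rgs20, a regulator of Gi-family signalling, had 101, 90.5 and 89.3 CPM in distal libraries and 0 in both proximal ones (edgeR adjusted p = 0.0403), at least 6.69-fold higher in distal cells against the floor of 3 UMIs over the proximal cells. The median log2 ratio of the list genes was 0.42, against 0.22 over all genes. The call ended without any 1 of the 5 libraries (edgeR adjusted p from 0.0503 to 0.0990) and at a limit of 10% mitochondrial UMIs (0.0514). Of the 5 genes, 2 (Slc6a2 and Chrm3) passed the filter on low counts, through their distal libraries.

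In fibroblasts 4 of 57 tested list genes passed, against 2.93% of 13734 genes, with a median log2 ratio of 0.07, against 0.03 over all genes. Rgs16 and Rgs2, which encode proteins that switch off Gq and Gi signals, were higher in distal fibroblasts by 2.99 ± 0.53 and 1.37 ± 0.29 on the log2 scale (edgeR adjusted p = 0.0216 and 0.0337). Rgs2 had 67.9, 61.6 and 62.1 CPM in distal, against 24.0, 10.6 and 33.5 CPM in proximal libraries. Prkcb, a protein kinase C gene, and Slc44a1, which encodes a choline transporter, were lower in distal fibroblasts, with log2 ratios of -1.85 ± 0.40 and -1.16 ± 0.26 (edgeR adjusted p = 0.0377 and 0.0397). All 4 calls ended without distal 1 and without proximal 3. Of the 6 libraries left out in turn, 5 ended the calls of Prkcb and of Slc44a1, 4 that of Rgs2 and 2 that of Rgs16, with edgeR adjusted p up to 0.215 for Slc44a1 without distal 3. With the replicate number as a block, Slc44a1 missed the threshold under title and under description numbers, and Rgs2 under description numbers (edgeR adjusted p = 0.25, 0.0540 and 0.0547). Of the 5 genes, 3 (Chrm3, Adra1a and Adra2a) passed the filter on low counts in fibroblasts.

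In vascular smooth muscle 2 of 15 tested list genes passed, against 7.99% of 1289 genes, with a median log2 ratio of -0.42, against 0.04 over all genes. Rgs5, which is also 1 of the 8 pericyte markers, had 1197 and 544 CPM in distal, against 66.3 and 149 CPM in proximal libraries (log2 ratio 2.93 ± 0.52 SE, edgeR adjusted p = 0.00681). The sum of the 7 pericyte markers other than Rgs5 was 916 to 1406 CPM in distal and 879 to 1260 CPM in proximal libraries, with 0 to 1 and 2 to 5 of them at 0, and their part in the Rgs5 difference was not tested. Gnas, which encodes the Gs protein of beta receptors, was higher in distal cells by 1.22 ± 0.31 (edgeR adjusted p = 0.0313). Both calls ended without distal 3 (edgeR adjusted p = 0.46 for Rgs5 and 0.468 for Gnas), and that of Gnas also ended without distal 1, without proximal 3, by DESeq2 and with no filter on low counts. Adra1a was the only one of the 5 genes to pass the filter on low counts there.

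In blood endothelium 5 of 25 tested list genes passed, against 10.1% of 4021 genes, with a median log2 ratio of -0.57, against 0.06 over all genes. Arrb1, which encodes a beta-arrestin that turns off receptors, had 112, 119 and 122 CPM in distal, against 816 and 446 CPM in proximal libraries (log2 ratio -2.23 ± 0.29 SE, edgeR adjusted p = 0.00168). Plcb4 and Rgs16 were also lower in distal cells, and Plcb1, which encodes a phospholipase downstream of Gq, was higher by 1.37 ± 0.29 (edgeR adjusted p = 0.0135). Rgs5 had 344, 56.2 and 363 CPM in distal libraries and no UMI in proximal ones, at least 13.2-fold higher in distal cells against the floor of 3 UMIs. The sum of the other 7 pericyte markers moved with it, at 131 to 325 CPM in distal and 0 to 32.6 CPM in proximal endothelium, where 5 to 7 of them were at 0, against 0 to 1 in distal libraries, and their part in the Rgs5 difference was not tested. Arrb1 passed without each library in turn (edgeR adjusted p up to 0.0384), whereas each of the other 4 calls ended without proximal 4. The Rgs16 call also ended by DESeq2 (adjusted p = 0.0553), and those of Rgs16 and Plcb4 ended with no filter on low counts (edgeR adjusted p = 0.296 and 0.236). None of the 5 genes passed the filter on low counts in blood endothelium. In Actg2 smooth muscle no fit was made, since the proximal libraries held 0, 3 and 8 of these cells.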

How the data were processed

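Counts of UMIs per gene and barcode were deposited by the authors, unnormalized, 1 matrix per library of uterine tube tissue digested to single cells, per the labels' protocols. Cell Ranger is given as 6.1.2, with mm39, in the submitters' processing notes, and as 7.0.0 per the file headers. Barcodes (20731, with 91560090 UMIs) had to hold 500 UMIs and 250 genes, with mitochondrial UMIs no higher than 20%; 1447 failed. Doublets were scored against simulated ones and 818 removed. The 18466 cells were clustered by the Leiden method (resolution 1) on 2000 variable genes without the 5 genes, the pathway lists and the markers. A cluster was named when its marker score reached 1.5 (log2), at least 3 markers were in 20% of cells, and no other class led its 10 top genes. Counts were summed per library and class, with at least 10 cells. Distal was tested against proximal with edgeR 4.0.16 (TMM, filterByExpr, adjusted p of 0.05), with DESeq2 1.42.0 as an alternative. On simulated data the edgeR test recovered 14% (ciliated epithelium) to 48% (non-ciliated epithelium) of changes of 2 on the log2 scale. Of changes of 4 it recovered 95% to 100%. A gene that did not pass can therefore still differ. Ratios against 0 use 3 UMIs over a section as the floor, and intervals and floors cover counting error only. The 5 genes and the lists were chosen with earlier results of these data known. From the lists, every gene past the threshold is named, up to 8 a class; for each of the 5 genes, the 5 most alike, among genes reaching 20 CPM in a cluster of at least 50 distal cells. Title and description numbers of the libraries pair them differently, so no pairing was used.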

Additional observations from a re-analysis of the deposited data

Results flagged for a closer look

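Clusters 12 and 21, both with haemoglobin genes among their leading genes, met no name and entered no comparison, yet held Slc6a2 above the limit that a count of 0 allows. In cluster 12, which also had S100b among its leading genes, the pooled distal cells had 29.7 CPM, from 31 UMIs in 473 cells. In cluster 21, which was also led by the Dcpp genes, they had 54.2 CPM, from 17 UMIs in 158 cells, of which 16 were in distal 1. Their median depths over all cells were 1654 and 1377 UMIs.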

How the results depend on the processing

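The counts of genes past the threshold, of which the list genes are a part, moved widely, and the cause was not tested except where fewer libraries entered. For non-ciliated epithelium, 394 genes became 1349 with DESeq2, 1288 with no filter on low counts, and 6 to 3495 when 1 library was left out (6 without distal 2, 3495 without proximal 2). For ciliated epithelium, 60 became 597 with DESeq2, 720 with no filter, 194 with the replicate block of description numbers, 11 at a mitochondrial limit of 10%, 132 with doublets kept, 315 without cluster 17, and 0 to 32 when 1 library was left out; the counts of 0, by edgeR, were without distal 2 (1572 genes at an unadjusted p under 0.05) and without proximal 4 (2279 genes). For fibroblasts, 402 became 1405 with no filter and 41 to 1942 when 1 library was left out (41 without distal 1, 1942 without proximal 2). For vascular smooth muscle, 103 became 40 with DESeq2 and 40 with no filter, and 0 to 148 when 1 library was left out, with 0 by edgeR without distal 3 (172 genes at an unadjusted p under 0.05); the lone library then left in a section was assumed to vary like the others. For blood endothelium, 408 became 47 to 489 when 1 library was left out. With the replicate block the counts were 553 (title numbers) and 478 (description numbers) in non-ciliated epithelium and 509 and 407 in fibroblasts. Libraries with the same number in title and description (distal 2 and proximal 2) deviated together at r = 0.57 in non-ciliated epithelium and 0.36 in fibroblasts; distal 3 did so with proximal 3 (title) at 0.34 and 0.12, and with proximal 4 (description) at 0.42 and 0.04, so the 2 sets of numbers pair distal 3 differently. No paired analysis was possible because too few libraries share a number in vascular smooth muscle and blood endothelium, or share a title number in ciliated epithelium.

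The Slc6a2 log2 ratio of mean CPM in non-ciliated epithelium, 4.26, rests on 2 proximal UMIs, under the floor of 3. It was 5.73 with cluster 10 (an alternative chosen after seeing the data, as was leaving out cluster 17). It was 3.67 to 4.36 over the 5 leave-outs of 1 library that gave a ratio. Without proximal 2, which held both proximal UMIs, no ratio could be formed. The Adra2a ratio in fibroblasts, 1.36, ran from 0.77 to 3.19 when 1 library was left out. The Chrm3 ratio in fibroblasts, 0.07, ran from -0.04 to 0.23 over all alternatives. The other log2 ratios given for Slc6a2, Chrm3, Adra1a and Adra2a kept their sign in every alternative run. Of the 15 calls of list genes (13 genes, since Rgs5 and Rgs16 were called in 2 classes each), 14 were lost when some 1 library was left out, and no call changed direction. Where a section holds 1 to 3 UMIs of a gene, depth sets the limit: proximal non-ciliated cells hold 1445737 UMIs, against 16972482 in distal ones.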
